A study of Mus musculus with 16 samples.

Results

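The endothelium of the postnatal cortex was compared between mice that had lost *Hmgb1* from astrocytes and mice that had kept it, across all genes. The comparison took the 8 endothelial cell (EC) libraries of the count table, 4 labelled mutant and 4 labelled wild type, out of 16 libraries in all. The other 8 libraries were the astrocytes of the same animals, and they are used here to check the deletion and to test whether an effect differed between the cell types. All animals were P14 (postnatal day 14) mice with both copies of *Hmgb1* floxed (*Hmgb1*flx/flx). Mutants, called *Hmgb1*ΔAstro in the study, also carried the Aldh1L1-Cre/ERT2 transgene, in which a tamoxifen-inducible Cre is driven by the promoter of the astroglial gene *Aldh1l1*. Wild types were littermates without Cre, and pups of both genotypes received tamoxifen over their first postnatal days, so exposure to the drug does not part the groups, whereas the Cre protein and the deletion cannot be told apart. ECs had been pulled from dissociated cortex with magnetic beads against CD31 after removal of myelin and of CD45+ cells. Each library came from 1 animal, named here by its number, and values of single libraries are given in the order mutants 2, 13, 18 and 21 and wild types 5, 9, 19 and 22. The serial numbers in the library names place every wild type before every mutant, in both cell types. What that order stands for is not stated, and it cannot be told apart from genotype.

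Brain ECs form the blood-brain barrier: tight junctions seal the gaps between the cells, caveola-borne transport is kept low, and dedicated transporters carry glucose, amino acids, lipids and vitamins. Astrocytes ensheathe these vessels with endfeet from the first postnatal weeks on and signal to the endothelium with secreted proteins. HMGB1 is an abundant chromatin protein that can also leave the cell and act on receptors such as RAGE (gene *Ager*) and TLR4, which ECs can carry. The Cre is not driven in ECs, and the comparison asks whether ECs differ when the astrocytes beside them have lost *Hmgb1*.

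No gene passed the test between mutant and wild-type ECs when all genes were tested together. With the quasi-likelihood test of edgeR, 0 of 15750 genes (0%) had a Benjamini-Hochberg adjusted p under 0.05, and the smallest adjusted p was 0.943. Every gene named below that was tested in this main EC fit has an edgeR adjusted p of at least that in it. At an unadjusted p under 0.05 there were 826 genes (5.24%), 412 higher (2.62%) and 414 lower (2.63%) in mutants. In 267 genes (1.70%) every mutant library was above every wild-type one, and in 269 genes (1.71%) below. DESeq2 called 3 genes, all lower in mutants: the ribosomal RNA gene *Rn18s-rs5*, *Lars2* and *Slc52a3*. Adding the level of *Xist* as a covariate to the edgeR fit left 1 called gene, *Lars2*. No other alternative called a gene. Barrier junctions, transporters, VEGF, Notch and Wnt genes had medians near 0, and most of their members were bounded to changes of less than 1.5-fold. Among the pathway lists the medians furthest from 0 were those of immediate early (-0.30), adhesion (-0.22) and cell cycle genes (-0.17), while markers of pericytes had a median of 0.44 and markers of ependyma and choroid plexus one of -1.16.

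The precision of this result can be read from the intervals. Of the 15750 genes, 84.1% had a 95% interval of the mutant over wild-type ratio that lay within 2-fold in either direction, and 63.0% within 1.5-fold. Among the 9365 genes with means over 10 CPM (counts per library size, scaled by TMM factors) in both genotypes these shares were 97.4% and 89.6%. The median log2 fold change of all genes was -0.00080 and the central 95% of values ran from -0.58 to 0.47. A log2 fold change beyond 1 in either direction was fitted for 120 genes, 21 higher and 99 lower. Of the genes over 10 CPM only 3 were among them, and each rested on 1 or 2 libraries. *Ttr*, the thyroid hormone carrier made by choroid plexus, stood at 16.6, 99.5, 2.26 and 1062 CPM in mutants, against 5002, 246, 2.401 and 2.06 CPM in wild types. *Cd74*, the invariant chain of antigen presentation, stood at 1.04, 1.85, 75.7 and 11.3 CPM in mutants, against 1.099, 2.81, 17.4 and 244 CPM in wild types. *Slc4a10*, a bicarbonate transporter that choroid plexus also uses, stood at 7.61, 21.7, 8.48 and 15.8 CPM in mutants, against 84.6, 6.12, 16.7 and 5.05 CPM in wild types. The highest value was in wild-type animal 5 for *Ttr* and *Slc4a10* and in wild-type animal 22 for *Cd74*, and in each gene the other libraries of the 2 genotypes overlapped. *Cd74* and *Slc4a10* were named after their values were seen.

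**Figure D1:**
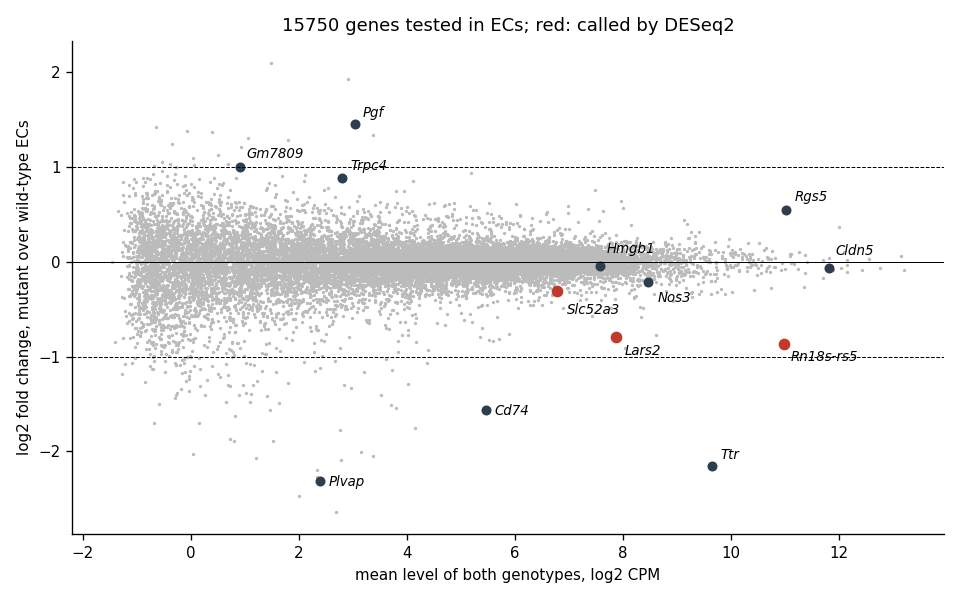
Each grey point is 1 of the 15750 genes tested in ECs, with the mean level of both genotypes (log2 CPM) on the x axis and the fitted log2 fold change of mutant over wild type on the y axis. Dashed lines mark a 2-fold change, and red points are the 3 genes called by DESeq2. Spread narrows as the level rises, and *Hmgb1* and *Cldn5* lie near 0 while *Ttr* lies at -2.16.

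Libraries held 16076010 to 22384951 counted reads in mutants and 16130383 to 20904640 in wild types. Between 24608 and 27113 genes had a read, and 5.59% to 6.45% of each total fell to its top 10 genes. No library was merged, since the chi-square per gene of the 12 pairs within a genotype was 11.99 to 57.7, above what sampling noise gives. Y-linked transcripts were present in mutants 2 and 13 and wild types 5 and 9, and the other 4 animals had *Xist*, the RNA of the inactive X chromosome, at 745 to 876 CPM. Wild-type animal 5 went partly against this split, with 13.1 CPM of *Xist* in its ECs and 7.08 CPM in its astrocytes where the other 3 animals with Y-linked transcripts had no more than 1.04 CPM in either. The first principal component (43.6% of variance) separated these sets of 4 animals, each with 2 mutants and 2 wild types, and not the genotypes. For some genes the fold change within the set with Y-linked transcripts and then within the set without is given beside the main value. Pearson's r between log2 levels was 0.972 to 0.992 for pairs of the same genotype and 0.976 to 0.995 for pairs of unlike genotype.

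The labelled cell type was borne out by its markers. The 19 EC markers summed to 22179 to 27727 CPM in mutants and 23311 to 26003 CPM in wild types. *Cldn5* stood at 3308, 3789.6, 3578 and 3308 CPM in mutants, against 3678, 4082, 3454 and 3442 CPM in wild types. *Kdr*, the main VEGF receptor, stood at 2937, 2342, 2780.2 and 2689 CPM in mutants, against 2600.3, 2259, 2621 and 2755 CPM in wild types. Values of the 2 genotypes overlapped in both genes. Of the 19 EC markers 0 had an unadjusted p under 0.05, 18 had intervals within 1.5-fold (all but *Ly6a*), and their median log2 fold change was 0.014.

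Markers of other cells were measurable in every library and were not even between animals. Pericyte and smooth muscle markers summed to 2407, 1856, 1323 and 2136 CPM in mutants 2, 13, 18 and 21, against 1246 to 1707 CPM in wild types. Ependyma and choroid plexus markers summed to 5174 CPM in wild-type animal 5 and 1106 CPM in mutant 21, against 18.8 to 282 CPM in the other 6. All 9 tested members had a negative log2 fold change, with the median of -1.16 given above, which was -1.75 and -0.20 within the sets and -0.228 without wild-type animal 5. At an unadjusted p under 0.05 there were 2, both named after their values were seen. Over all genes 2.63% were lower at that p, and 1.71% were lower in every mutant. *Foxj1*, the regulator of motile cilia, stood at 2.63, 3.15, 3.96 and 2.49 CPM in mutants, against 10.2, 9.22, 3.14 and 4.64 CPM in wild types, and *Ccdc153*, an ependymal gene, was lower in all 4 mutants at 1.77, 2.36, 2.37 and 0.8499 CPM in mutants, against 3.11, 7.89, 2.59 and 2.99 CPM in wild types. Oligodendrocyte markers ranged from 437 CPM in wild-type animal 22 to 3571 CPM in wild-type animal 9, and microglia and macrophage markers from 97.7 CPM in mutant 13 to 439.7 CPM in wild-type animal 22. Astrocyte markers summed to 1080.2 to 1611 CPM in mutants and 999.6 to 1648 CPM in wild types, and neuronal markers to 59.4 to 80.2 and 52.8 to 67.8 CPM. Fibroblast and meningeal markers reached 736 CPM in wild-type animal 5, where the other 7 libraries had 325 to 579 CPM. Erythroid markers summed to 837 to 2146 and 854 to 1600.2 CPM, and markers of oligodendrocyte precursors to 273 to 349.6 and 225 to 319 CPM. In such bulk samples more cells of a type and more RNA per cell cannot be told apart.

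**Figure D2:**
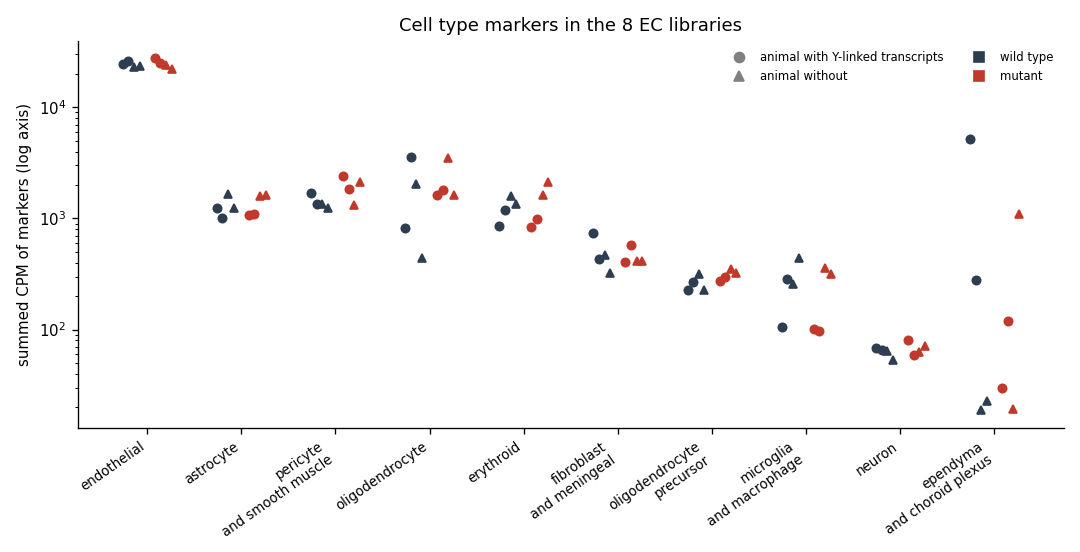
Summed CPM (log axis) of 10 marker lists in each of the 8 EC libraries, blue for wild type and red for mutant, with circles for animals with Y-linked transcripts and triangles for those without. EC markers lie at 22179 to 27727 CPM, and choroid plexus markers range from 18.8 to 5174 CPM.

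The targeted gene *Hmgb1*, on the minus strand of chromosome 5 (GRCm39, 148983445 to 149121815), was counted in ECs at 178, 196, 188 and 183 CPM in mutants, against 177, 191, 195 and 208 CPM in wild types. The groups overlapped, and the means were 186 ± 7.95 CPM in mutants, against 193 ± 12.6 CPM in wild types (SD, n = 4). The log2 fold change was -0.048 ± 0.062 (SE), with a 95% interval of -0.19 to 0.093, and an exact two-sided permutation test of the 8 values gave p = 0.486 where the smallest p it allows is 0.0286. In astrocytes of the same animals *Hmgb1* stood at 33.8, 39.6, 41.5 and 49.5 CPM in mutants and 88.01, 89.4, 126 and 118 CPM in wild types, with no overlap between genotypes (exact p = 0.0286). Reads of *Hmgb1* cannot be parted from those of *Uspl1* and 2 long non-coding RNAs whose exons overlap it, since the strand setting of the counting is not stated.

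Whether the EC effect differed from the astrocyte effect was tested over all 16 libraries. The difference passed the threshold in 2 of 17493 genes (0.0114%), *Hmgb1* and *Esr1*. For *Hmgb1* the EC effect exceeded the astrocyte effect by 1.32 ± 0.17 (log2, SE; edgeR adjusted p = 0.01), and the difference did not pass when animal 2, 13, 18, 19 or 22 was left out. *Esr1*, the oestrogen receptor gene whose ligand-binding part is the ERT2 portion of the Cre fusion, stood in ECs at 1.18, 1.81, 1.71 and 1.94 CPM in mutants, against 1.58, 2.22, 1.85 and 2.63 CPM in wild types. These values overlapped, with a log2 fold change of -0.32 ± 0.24 and an interval of -0.86 to 0.21. In astrocytes *Esr1* stood at 7.25, 5.995, 10.1 and 5.54 CPM in mutants and 0.266, 0.116, 0.112 and 0.102 CPM in wild types, and the EC effect was lower by a log2 difference of -5.85 ± 0.43 (edgeR adjusted p = 1.005e-05). The next 3 genes by p did not pass. They were *Abhd8*, a hydrolase-domain gene (difference -0.55, edgeR adjusted p = 0.271), *Cdkn1a*, the cell cycle inhibitor p21 (-1.06, 0.52), and *Camk1g*, a calcium/calmodulin-dependent kinase gene (2.60, 0.626). With the animal as a block *Cdkn1a* passed as well, for 3 genes in all (edgeR adjusted p = 0.0286). Its EC values were 128, 185, 122 and 134 CPM in mutants, against 137, 169.7, 150.2 and 149.6 CPM in wild types, and they overlapped. Its astrocyte values were 9.95, 15.3, 12.4 and 10.8 CPM in mutants and 5.58, 6.62, 6.79 and 5.63 CPM in wild types, without overlap.

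**Figure D3:**
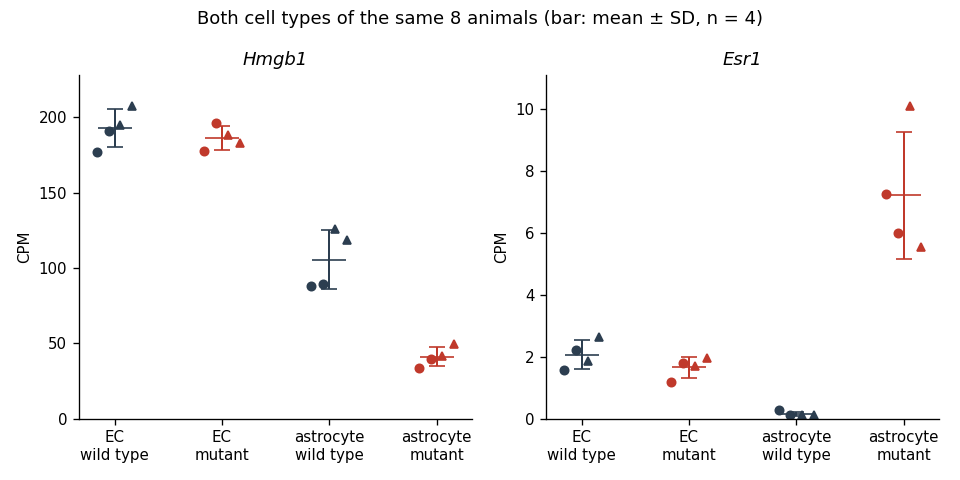
CPM of *Hmgb1* (left) and *Esr1* (right) in ECs and astrocytes of the same 8 animals, by genotype, with bars for the mean and SD of n = 4. The genotypes overlap in ECs for both genes, while in astrocytes *Hmgb1* is lower and *Esr1* higher in all 4 mutants.

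The 6 astrocyte genes that the study names were looked up in ECs, and 0 of the 5 tested were called. *Lurap1l* stood at 33.4, 32.1, 34.2 and 33.6 CPM in mutants, against 33.3, 27.97, 31.6 and 29.2 CPM in wild types (0.13 ± 0.069). *Arhgef28* stood at 50.4 to 60.2 CPM in mutants and 46.6 to 56.6 CPM in wild types and *Teddm2*, whose exons overlap *Glul*, at 1.05 to 2.19 CPM in mutants and 1.19 to 2.02 CPM in wild types. *Slit1*, a guidance ligand, and *Ptger4*, a prostaglandin receptor, were near the limit of counting at 0.362 to 0.495 CPM in mutants and 0.287 to 1.13 CPM in wild types and at 0.861 to 2.31 CPM in mutants and 0.765 to 3.3003 CPM in wild types. *Camk1g*, at 0.275 to 0.546 CPM in mutants and 0.0516 to 0.382 CPM in wild types, was too low for the EC test. The genotypes overlapped in every one of these genes.

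The genes with the smallest p were led by ribosomal RNA. *Rn18s-rs5* (18S ribosomal RNA; ENSMUSG00000119584.1, GRCm39 chromosome 17, 40157244 to 40159092, plus strand) stood at 1598, 1500.5, 1305 and 1282 CPM in mutants, against 2664, 3180.4, 1994 and 2544 CPM in wild types. Every mutant library was below every wild-type one, and the log2 fold change was -0.87 ± 0.14 (edgeR adjusted p = 0.943; DESeq2 adjusted p = 1.27e-04). *Lars2* (mitochondrial leucyl-tRNA synthetase; ENSMUSG00000035202.9, GRCm39 chromosome 9, 123195952 to 123291731, plus strand) stood at 206, 182, 154 and 145 CPM in mutants, against 307, 349, 244 and 288 CPM in wild types, again without overlap (-0.79 ± 0.14, edgeR adjusted p = 0.943; DESeq2 adjusted p = 0.00182). The long non-coding RNA *Gm15564* (ENSMUSG00000086324.10, GRCm39 chromosome 16, 35776121 to 35803658, minus strand) stood at 3.31, 3.15, 2.31 and 2.31 CPM in mutants, against 4.21, 7.498, 6.095 and 5.36 CPM in wild types, without overlap (-1.06 ± 0.22). *Gm54867*, annotated as ribosomal RNA, stood at 3.52 to 4.404 CPM in mutants and 5.36 to 9.37 CPM in wild types, and *Gm55094*, annotated as a microRNA, at 0.2202 to 0.362 CPM in mutants and 0.619 to 1.43 CPM in wild types, and both lay lower in all 4 mutants. Within the set with Y-linked transcripts and the set without, the log2 fold changes were -0.91 and -0.81 for *Rn18s-rs5* and -0.75 and -0.84 for *Lars2*. In the astrocyte libraries *Rn18s-rs5* stood at 1475, 1045, 2118 and 1588 CPM in mutants and 2477, 1911, 5146 and 2135 CPM in wild types. *Lars2* stood there at 192, 144, 230 and 160 CPM in mutants and 334, 264, 495 and 243 CPM in wild types, without overlap. The astrocyte log2 fold changes were -0.91 ± 0.28 for *Rn18s-rs5*, -0.89 ± 0.21 for *Lars2* and -1.08 ± 0.33 for *Gm15564*. They were -0.74 ± 0.35 for *Gm54867* and -2.62 ± 0.45 for *Gm55094*. In astrocytes the genotypes overlapped for *Rn18s-rs5*, *Gm15564* and *Gm54867*, and not for *Lars2* and *Gm55094*. Fitted values of these genes were thus lower in mutants in both cell types, and not in ECs alone. Library order runs with genotype in both cell types, and its part was not tested. Of 356 identifiers annotated as ribosomal RNA only 4 were high enough to test. The 2 others, the mitochondrial *mt-Rnr1* and *mt-Rnr2*, had log2 fold changes of -0.34 and -0.27 with intervals of -1.33 to 0.64 and -1.26 to 0.72.

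Transcripts of *Lars2* and *Gm15564* share a run of 55 identical bases, and reads from it cannot be assigned to either gene. The first 30 bases of it are shown, in the sense of both transcripts (GENCODE, GRCm39), because genes of unlike annotation had similar fold changes. In the transcripts that share most it starts at base 3315 of *Lars2* and at base 237 of *Gm15564*, and 6 of 20 *Lars2* transcripts and 1 of 18 *Gm15564* transcripts hold the 30 bases. No base is capitalised.
Lars2 and Gm15564: gcagaattcaccaagcgttggattgttcac
How much of the counts of either gene falls in this run was not tested. The run was sought in transcripts of these genes alone. Whether ribosomal RNA also holds it, and so could be the source of reads counted for either gene, was not tested.

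*Slc52a3* was the protein-coding gene with the smallest p. It encodes a riboflavin (vitamin B2) transporter and was listed here with the barrier transporters (ENSMUSG00000027463.15, GRCm39 chromosome 2, 151838426 to 151852027, plus strand). It stood at 103, 95.6, 101 and 92.5 CPM in mutants, against 120.4, 118, 123.1 and 122.7 CPM in wild types. Libraries within each genotype lay close together, with means of 98.04 ± 4.87 CPM in mutants, against 121 ± 2.36 CPM in wild types (SD, n = 4), and all mutants were below all wild types. The log2 fold change was -0.30 ± 0.051 (interval -0.42 to -0.19, edgeR adjusted p = 0.943; DESeq2 adjusted p = 0.0359), -0.26 and -0.35 within the sets, and -0.33 to -0.28 when each animal was left out in turn. No annotated exon of another gene overlaps it.

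Among the rest of the 15 smallest p, 4 genes were higher in mutants. *Trpc4*, a calcium-permeable channel of ECs, stood at 10.3, 8.95, 7.16 and 9.59 CPM in mutants, against 6.17, 3.85, 4.74 and 4.74 CPM in wild types, a log2 fold change of 0.88 ± 0.18 (edgeR adjusted p = 0.943; DESeq2 adjusted p = 0.0548). *Lpar4*, a lysophosphatidic acid receptor on the X chromosome, stood at 37.02, 37.1, 34.9 and 37.2 CPM in mutants, against 28.9, 25.6, 31.3 and 30.6 CPM in wild types (0.33 ± 0.074, and 0.45 and 0.22 within the sets). *Iqsec1*, an exchange factor for ARF6 that acts on integrin recycling, stood at 153, 134, 142 and 142 CPM in mutants, against 124, 99.1, 119 and 108 CPM in wild types (0.35 ± 0.078). The genotypes did not overlap in any of the 3. The pseudogene *Gm7809*, at 2.15 to 2.79 CPM in mutants and 1.05 to 1.39 CPM in wild types (1.001 ± 0.18), lies within an exon of *Zfp943*, and the reads of both cannot be parted.

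The remaining genes of this group were lower in mutants, again without overlap. Among them *Cherp*, a regulator of calcium release and splicing, stood at 36.9 to 44.1 CPM in mutants and 49.5 to 53.6 CPM in wild types (-0.34 ± 0.068), and *Abhd8* at 33.9 to 36.9 CPM in mutants and 41.4 to 46.7 CPM in wild types (-0.31 ± 0.059). *Atp5mc2*, a subunit of the mitochondrial ATP synthase, stood at 21.9 to 24.9 CPM in mutants and 26.5 to 30.1 CPM in wild types (-0.31 ± 0.070), and *Dipk1b* at 3.58 to 4.29 CPM in mutants and 5.57 to 7.203 CPM in wild types (-0.72 ± 0.15). *Cherp* and *Dipk1b* share exons with *1700030K09Rik* and *Gm20532*, so their reads are uncertain. These genes were picked by their p from all 15750, and that choice favours groups without overlap. Their lack of overlap therefore adds nothing to the p, and the shares of 1.70% and 1.71% above are of genes not so picked. The same holds for members named below for the smallest p of their pathway list. Where such a member is higher or lower in all 4 mutants, that too adds nothing to its p.

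**Figure D4:**
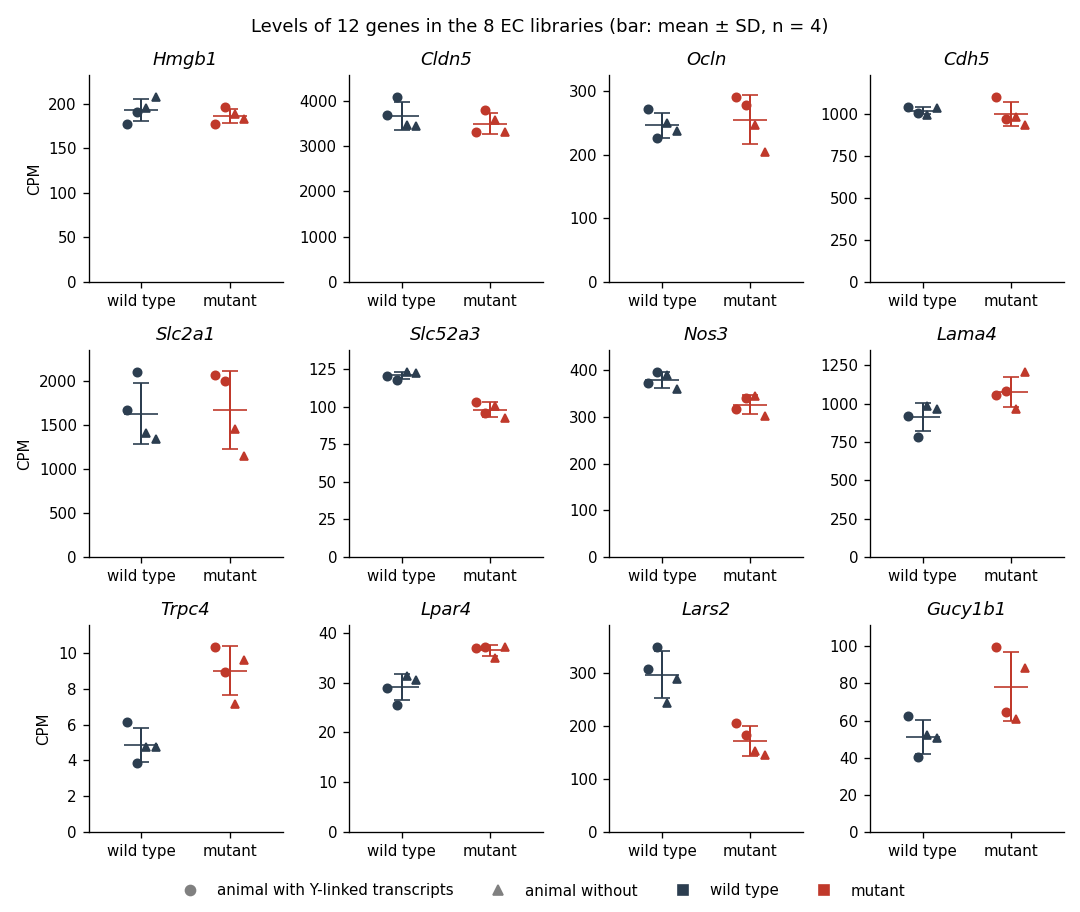
CPM of 12 genes in the 4 wild-type (blue) and 4 mutant (red) EC libraries, with bars for the mean and SD and axes from 0. Barrier genes (*Cldn5*, *Ocln*, *Cdh5*, *Slc2a1*) overlap between genotypes, while *Slc52a3*, *Nos3* and *Lars2* are lower and *Trpc4* and *Lpar4* higher in all 4 mutants.

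Junction genes were the first group of interest. Of 30 tight and adherens junction genes 27 were tested, 13 with a positive and 14 with a negative sign, and 0 had an unadjusted p under 0.05. Their median log2 fold change was -0.0057 beside -0.00080 over all genes, and 24 of the 27 had intervals within 1.5-fold. *Ocln*, the tight junction protein occludin, stood at 291, 278, 248 and 204 CPM in mutants, against 273, 227, 251 and 237 CPM in wild types (0.047 ± 0.11, interval -0.21 to 0.30). *Cdh5*, the EC adherens junction cadherin, stood at 1104, 974.7, 986 and 938 CPM in mutants, against 1043, 1009, 999.7 and 1036 CPM in wild types (-0.030 ± 0.069, interval -0.19 to 0.13). *Ctnnb1*, β-catenin, stood at 1213 to 1480.4 CPM in mutants and 1229 to 1413 CPM in wild types (-0.031 ± 0.083) and *Tjp1*, the scaffold ZO-1, at 698 to 872 CPM in mutants and 612 to 908 CPM in wild types (0.030 ± 0.12, interval -0.25 to 0.31). *Cldn5*, with the values given above, had -0.068 ± 0.086 (interval -0.26 to 0.13). Groups overlapped in all of these genes. The smallest p of the list belonged to *Lsr*, the lipolysis-stimulated receptor of tricellular junctions, at 161, 159, 155 and 138 CPM in mutants, against 171, 174, 168 and 158 CPM in wild types (-0.13 ± 0.063, edgeR adjusted p = 0.943), and to *Jup*, plakoglobin, at 257 to 304 CPM in mutants and 268 to 350.2 CPM in wild types (-0.18 ± 0.091).

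Barrier transporters were as even. All 37 were tested, 17 with a positive and 20 with a negative sign, with a median of -0.0095, and 31 had intervals within 1.5-fold. *Slc52a3* was the 1 member with an unadjusted p under 0.05. *Slc2a1*, the glucose transporter GLUT1, stood at 2065, 1994, 1449.8 and 1145 CPM in mutants, against 1665, 2097, 1409 and 1333 CPM in wild types (0.033 ± 0.21, interval -0.45 to 0.51). It was higher in animals with Y-linked transcripts than in the others of either genotype. *Mfsd2a*, the lysolipid transporter that keeps caveolar transport low, stood at 937, 1041, 1065 and 971 CPM in mutants, against 1107, 882, 1221 and 968 CPM in wild types (-0.058 ± 0.11). *Abcb1a*, the efflux pump P-glycoprotein, stood at 919.9 to 1307 CPM in mutants and 897 to 1129 CPM in wild types (0.13 ± 0.12, interval -0.14 to 0.40). *Slc38a5*, a glutamine transporter of venous ECs, stood at 474, 567, 694 and 651 CPM in mutants, against 617, 631, 778 and 990.1 CPM in wild types (-0.34 ± 0.17).

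For caveolae, transcytosis and macropinocytosis all 42 genes were tested, 16 positive and 26 negative, with a median of -0.025, and 2 had a lower value at an unadjusted p under 0.05, *Lrp10* among them, where 2.63% of all genes did. This endocytic receptor stood at 178, 186, 178 and 186 CPM in mutants, against 222, 197, 211 and 216 CPM in wild types (-0.21 ± 0.054). *Cav1*, the caveolar coat protein, stood at 512, 517, 424 and 422 CPM in mutants, against 375, 509, 341 and 425 CPM in wild types (0.18 ± 0.13, interval -0.12 to 0.48). *Plvap*, the diaphragm protein of leaky vessels, stood at 0.997, 2.23, 1.101 and 2.73 CPM in mutants, against 27.1, 5.72, 1.35 and 0.6704 CPM in wild types. Its fitted log2 fold change of -2.31 (SE 1.02) rested on wild-type animals 5 and 9, the wild types with the most choroid plexus marker RNA, and was -3.34 within the set with Y-linked transcripts and 0.93 within the set without. Mutant 21, which had more choroid plexus marker RNA than wild-type animal 9, stood at 2.73 CPM. The part of choroid plexus vessels in these values was not tested.

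Of 29 VEGF and angiopoietin genes 13 were positive and 16 negative, with a median of -0.0083. *Flt1*, the decoy VEGF receptor, stood at 2527, 2195, 2204 and 2023 CPM in mutants, against 2132, 2127, 2244 and 2072 CPM in wild types (0.062 ± 0.082), *Kdr* had 0.071 ± 0.095 and *Tek*, the angiopoietin receptor TIE2, stood at 781 to 1033 CPM in mutants and 851 to 974.8 CPM in wild types (0.040 ± 0.093). *Pgf*, placental growth factor, was the largest value of the list, at 26.9, 5.05, 5.56 and 10.5 CPM in mutants, against 5.69, 4.79, 3.45 and 3.56 CPM in wild types. Mutant 2 was far above the others and the genotypes overlapped (1.46 ± 0.52, edgeR adjusted p = 0.943). *Vegfb* was lower in all 4 mutants, at 8.02, 10.01, 10.6 and 9.47 CPM in mutants, against 11.3, 13.1, 11.5 and 11.8 CPM in wild types (-0.33 ± 0.12). *Pecam1*, the CD31 used for selection, stood at 1255 to 1502 CPM in mutants and 1313 to 1414 CPM in wild types (0.014 ± 0.075).

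Of 22 Notch genes 7 were positive and 15 negative, with a median of -0.030. *Dll4*, the ligand of tip and arterial ECs, stood at 187, 231, 224 and 198 CPM in mutants, against 243, 227, 224 and 186 CPM in wild types (-0.067 ± 0.098), and *Notch1* at 214 to 351 CPM in mutants and 231 to 339.8 CPM in wild types (-0.028 ± 0.17). The 2 members with an unadjusted p under 0.05 were the Fringe glycosyltransferases *Mfng*, at 140.0, 157, 150.1 and 146 CPM in mutants, against 175, 159, 177 and 162 CPM in wild types (-0.18 ± 0.059), and *Rfng*, at 20.7 to 26.4 CPM in mutants and 26.6 to 30.1 CPM in wild types (-0.24 ± 0.091), whose exons overlap *Gps1*. Both were lower in all 4 mutants, *Rfng* by a narrow gap. Over all genes 2.63% were lower at that p, and 1.71% were lower in every mutant.

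Wnt and Norrin signalling induces and keeps the barrier. Its 34 genes had a median of -0.064, 13 positive and 21 negative, with 0 at an unadjusted p under 0.05 and 28 bounded within 1.5-fold. The receptor *Fzd4* stood at 361, 323, 237 and 228 CPM in mutants, against 287, 284, 234 and 233 CPM in wild types (0.15 ± 0.16), and the transcription factor *Lef1* at 53.1 to 79.4 CPM in mutants and 62.04 to 71.97 CPM in wild types (-0.11 ± 0.12). The feedback targets were *Axin2*, at 73.3, 76.2, 86.5 and 92.1 CPM in mutants, against 91.3, 87.6, 87.98 and 86.1 CPM in wild types (-0.11 ± 0.077, and -0.26 and 0.037 within the sets), and *Nkd1*, at 325 to 503 CPM in mutants and 389.7 to 533 CPM in wild types (-0.31 ± 0.15, and -0.55 and -0.082 within the sets). *Tcf7*, a partner of β-catenin, stood at 198 to 223 CPM in mutants and 214 to 253 CPM in wild types (-0.16 ± 0.070). The genotypes overlapped in all 5.

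**Figure D5:**
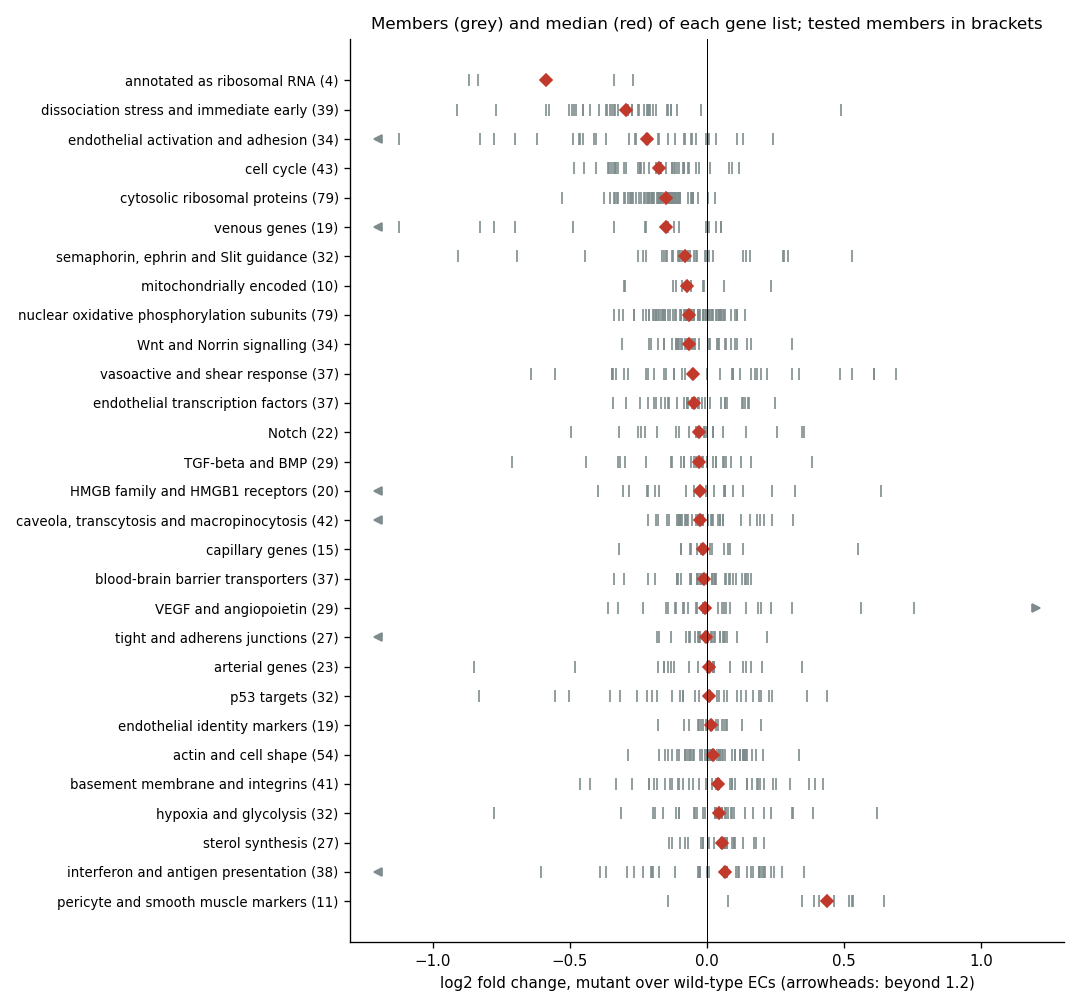
Each row is a gene list with the log2 fold change of every tested member in ECs (grey) and their median (red), and the number of tested members in brackets, ordered by the median. Junctions, transporters, VEGF and EC identity markers centre near 0, pericyte markers lie at a median of 0.44, and the immediate early list at -0.30.

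TGF-β and BMP genes (10 positive and 19 negative of 29) and guidance genes of the semaphorin, ephrin and Slit families (9 positive and 23 negative of 32) had medians of -0.030 and -0.081, with 0 members of either at an unadjusted p under 0.05. In the first, *Inhbb*, an activin subunit, stood at 4.13 to 6.07 CPM in mutants and 3.503 to 5.11 CPM in wild types (0.38 ± 0.18, and 0.64 and 0.13 within the sets) and *Tgfb1* at 137 to 179 CPM in mutants and 157 to 176 CPM in wild types (-0.13 ± 0.087). In the second, *Efnb1*, an ephrin ligand on the X chromosome, stood at 15.1 to 19.2 CPM in mutants and 16.99 to 22.2 CPM in wild types (-0.22 ± 0.12, and -0.43 and 0.0043 within the sets), and *Slit1* had -0.91 ± 0.42.

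Vessel type lists varied more between animals than between genotypes. Arterial genes had a median of 0.0068 over 23 members, and venous genes -0.15 over 19, of which 15 were negative. A score per library, the median over members of the difference from the mean log2 level of all 8 libraries, ran for venous genes from -0.41 in wild-type animal 5 to 0.55 in wild-type animal 22, and for arterial genes from -0.41 in animal 22 to 0.42 in wild-type animal 9. Mutants lay between these, at -0.33 to 0.063 and -0.19 to 0.21. Of arterial genes *Hey2*, a Notch target, stood at 9.19 to 14.001 CPM in mutants and 7.104 to 12.1 CPM in wild types (0.34 ± 0.20) and *Unc5b*, a netrin receptor, at 287 to 337 CPM in mutants and 241 to 329 CPM in wild types (0.14 ± 0.11). Of 15 capillary genes *Rgs5* had an unadjusted p under 0.05, at 2814, 2674, 1504 and 2876 CPM in mutants, against 2103, 1858, 1396 and 1381 CPM in wild types (0.55 ± 0.22). *Rgs5* is also abundant in pericytes, and mutant 18, the mutant with the lowest pericyte marker sum, was the mutant with the lowest *Rgs5*. The part of pericytes in this value was not tested. *Tgm2*, a transglutaminase of the same list, stood at 119 to 170.2 CPM in mutants and 119 to 292 CPM in wild types (-0.32 ± 0.25, and -0.038 and -0.51 within the sets).

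The 11 tested pericyte and smooth muscle markers had a median of 0.44, 10 of them positive and 6 at an unadjusted p under 0.05, where 2.62% of all genes were higher at that p. *Vtn*, vitronectin, stood at 781, 725, 419 and 654 CPM in mutants, against 573, 554, 405 and 374 CPM in wild types. *Pdgfrb*, the receptor that defines pericytes, stood at 391, 279.6, 227 and 379.9 CPM in mutants, against 295, 186, 258 and 236 CPM in wild types. *Abcc9* and *Kcnj8*, subunits of the pericyte potassium channel, had log2 fold changes of 0.64 ± 0.23 and 0.53 ± 0.18, and the contractile genes *Acta2* and *Myh11* -0.14 ± 0.35 and 0.075 ± 0.37 (all 4 named after their values were seen). Mutants 2, 13 and 21 lay high in *Vtn* and mutant 18 within the wild-type range. In 0 of the 11 markers was every mutant above or below every wild type. Medians within the sets were 0.48 and 0.45. Other genes that pericytes also express lay higher in the same mutants, and the part of pericytes in them was not tested. They include *Gucy1b1*, a subunit of the nitric oxide receptor, at 99.5, 64.5, 60.7 and 88.4 CPM in mutants, against 62.4, 40.2, 52.1 and 50.5 CPM in wild types (0.61 ± 0.18), and *Myl9*, a myosin light chain, at 129, 125, 93.7 and 140.2 CPM in mutants, against 105, 92.3, 91.2 and 98.6 CPM in wild types (0.33 ± 0.12).

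The 41 genes of basement membrane and integrins had a median of 0.039, 23 positive and 18 negative. *Col4a1*, a chain of type IV collagen, stood at 5201, 3978, 4076 and 4670.5 CPM in mutants, against 4245, 4048, 4273 and 4123 CPM in wild types (0.10 ± 0.097). *Lama4*, a vascular laminin chain made by ECs and by pericytes, stood at 1056, 1079.8, 967 and 1206 CPM in mutants, against 923, 782, 983 and 966 CPM in wild types (0.24 ± 0.097, edgeR adjusted p = 0.943), with mutant 18 inside the wild-type range. *Itgav*, the integrin αv, was higher in all 4 mutants, at 79.02, 55.2, 52.9 and 72.1 CPM in mutants, against 52.05, 41.8, 51.6 and 51.98 CPM in wild types (0.39 ± 0.14). *Mmp15*, a membrane-bound matrix metalloproteinase, was lower in all 4, at 285, 284, 294 and 292 CPM in mutants, against 336, 317, 343 and 317 CPM in wild types (-0.18 ± 0.052). Both were named for the smallest p of the list. Over all genes 1.70% were higher and 1.71% lower in every mutant.

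Of 37 EC transcription factors 11 were positive and 26 negative, with a median of -0.048 and 3 lower at an unadjusted p under 0.05, *Tbx1*, *Foxl2* and *Foxp1*, where the share over all genes was 2.63%. *Tbx1* was lower in all 4 mutants, at 89.3, 83.1, 85.8 and 69.8 CPM in mutants, against 106, 97.7, 92.6 and 92.8 CPM in wild types (-0.25 ± 0.084), and *Foxl2* stood at 42.05 to 50.8 CPM in mutants and 49.2 to 57.6 CPM in wild types (-0.19 ± 0.079), with exons that overlap *Foxl2os*. The 54 genes of actin and cell shape had a median of 0.020 and 49 were bounded within 1.5-fold. *Arhgef15*, a guanine nucleotide exchange factor of ECs, was lower in all 4 mutants, at 268, 241, 252 and 235 CPM in mutants, against 286, 286, 285 and 268 CPM in wild types (-0.18 ± 0.059).

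Vasoactive and shear-responsive genes centred at -0.052 (18 positive and 19 negative of 37). *Nos3*, the endothelial nitric oxide synthase, was lower in all 4 mutants, at 317, 340.2, 345 and 303 CPM in mutants, against 372, 396, 389.6 and 359 CPM in wild types. The log2 fold change was -0.22 ± 0.065 (interval -0.36 to -0.070, edgeR adjusted p = 0.943). Taken within the sets it was -0.22 with Y-linked transcripts and -0.21 without. Its exons overlap *Atg9b* on the other strand. *Klf2*, the flow-responsive factor upstream of *Nos3*, overlapped between genotypes at 485, 623, 558 and 396 CPM in mutants, against 605, 771, 508 and 474 CPM in wild types (-0.19 ± 0.18).

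The genes of RAGE and TLR4, receptors through which extracellular HMGB1 can act, overlapped between genotypes. *Ager* stood at 4.395, 4.68, 5.23 and 6.37 CPM in mutants, against 6.02, 5.72, 4.62 and 3.35 CPM in wild types (0.066 ± 0.21, and -0.37 and 0.54 within the sets) and *Tlr4* at 17.1, 10.6, 12.1 and 14.6 CPM in mutants, against 11.6, 10.7, 12.7 and 16.04 CPM in wild types (0.093 ± 0.18). Over 20 tested genes of the HMGB family and its receptors 9 were positive and 11 negative, with a median of -0.026. *Ticam1*, the adaptor TRIF downstream of TLR4, was lower in all 4 mutants, at 12.01, 11.7, 11.1 and 8.196 CPM in mutants, against 13.7, 16.1, 12.6 and 14.3 CPM in wild types (-0.40 ± 0.14). *Tlr9* was at 0.0906 to 0.668 CPM in mutants and 0.239 to 1.599 CPM in wild types.

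Genes of EC activation and leukocyte adhesion had a median of -0.22, with 28 of 34 negative. *Icam1* stood at 204, 170.2, 171 and 184 CPM in mutants, against 148, 460.2, 166 and 251 CPM in wild types (-0.49 ± 0.32) and *Vcam1* at 96.4, 77.6, 141 and 118 CPM in mutants, against 52.8, 105, 105 and 217 CPM in wild types (-0.14 ± 0.37). The highest value was in wild-type animal 9 for *Icam1* and in wild-type animal 22 for *Vcam1*, and the other libraries overlapped. *Nos2*, inducible nitric oxide synthase, stood at 79.9, 80.99, 92.4 and 82.6 CPM in mutants, against 93.7, 84.4, 111 and 114 CPM in wild types (-0.26 ± 0.10). *Rela*, a subunit of NF-κB, stood at 125, 126, 122 and 121 CPM in mutants, against 132, 164, 130.0 and 132 CPM in wild types (-0.18 ± 0.080), lower in all 4 mutants with wild-type animal 9 well above the rest.

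Immediate early and dissociation stress genes, which switch on in minutes during tissue dissociation, followed a single animal. Of 39 tested 38 were negative, with a median of -0.30 and 0 at an unadjusted p under 0.05. The score per library was 0.87 in wild-type animal 9 and between -0.26 and 0.090 in the other 7, and the median was -0.51 within the set that holds this animal and -0.014 within the other. *Ier5* stood at 102, 111, 117 and 117 CPM in mutants, against 119, 156, 120.1 and 117 CPM in wild types (-0.20 ± 0.10) and *Myc* at 14.6 to 20.5 CPM in mutants and 17.4 to 23.8 CPM in wild types (-0.28 ± 0.14).

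Interferon and antigen presentation genes varied widely between animals of the same genotype. Their score was 0.86 in mutant 18 and 0.85 in wild-type animal 22, against -0.71 to 0.13 in the other 6 libraries, and the 38 members had a median log2 fold change of 0.066. The 4 animals with Y-linked transcripts had the 4 lowest scores. *Ifitm3*, an interferon-induced membrane protein, stood at 101, 118, 187 and 145 CPM in mutants, against 94.9, 152, 163 and 312 CPM in wild types (-0.39 ± 0.34), and its neighbour *Ifitm2* at 12.4 to 14.9 CPM in mutants and 15.1 to 22.6 CPM in wild types (-0.37 ± 0.14).

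Of 43 cell cycle genes 39 were negative and 0 had an unadjusted p under 0.05. The median of -0.17 did not hold in both sets, at 0.12 in animals with Y-linked transcripts and -0.46 in those without, where wild-type animal 22 had the highest score (0.50) and mutant 21 the lowest (-0.29). *Ube2c*, a mitotic ubiquitin ligase subunit, stood at 18.5, 21.5, 23.4 and 15.8 CPM in mutants, against 21.4, 22.3, 25.5 and 35.7 CPM in wild types (-0.40 ± 0.18), and *Kif23*, a cytokinesis motor, at 29.6 to 41.5 CPM in mutants and 38.6 to 55.5 CPM in wild types (-0.29 ± 0.13). Of 32 p53 targets 17 were positive and 15 negative, with a median of 0.0088. The DNA repair gene *Xpc* was higher in all 4 mutants, at 38.6, 40.7, 41.01 and 46.02 CPM in mutants, against 36.7, 32.6, 37.002 and 36.05 CPM in wild types (0.22 ± 0.073), and *Rrm2b*, a ribonucleotide reductase subunit, stood at 28.4 to 31.4 CPM in mutants and 24.4 to 29.3 CPM in wild types (0.17 ± 0.074).

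Ribosomal protein genes had lower fitted values in mutants, by a small amount. Of 79 tested 77 were negative, with a median of -0.15, and 13 were lower at an unadjusted p under 0.05 (where 2.63% of all genes were lower at that p). Every mutant library was below every wild-type one in 3 of the 79, *Rpl36* and *Rplp1* among them, where 1.71% of all genes were so. *Rplp1*, a stalk protein of the large subunit, stood at 502, 619.6, 534 and 491 CPM in mutants, against 638, 818, 659 and 669 CPM in wild types (-0.37 ± 0.11, edgeR adjusted p = 0.943), and *Rpl12* at 232, 286, 249 and 249.9 CPM in mutants, against 264, 344, 325 and 319.7 CPM in wild types (-0.30 ± 0.096). Members share regulation, so they are not independent. The score per library was 0.16 in mutant 13 and -0.062 in mutant 18, inside the wild-type range of -0.093 to 0.27, and the lowest was -0.27 in mutant 2. The median kept its sign within both sets (-0.14 and -0.17).

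The nuclear subunits of oxidative phosphorylation, a list added after values had been seen, had a smaller median of -0.066. Of 79 tested 58 were negative, 15 of them lower at an unadjusted p under 0.05 (2.63% over all genes) and 10 lower in all 4 mutants (1.71% over all genes). Short genes as a whole sat slightly lower, and the lengths of the members of this list were not compared with those of all genes. The median log2 fold change was -0.033 over the fifth of genes with the shortest exons and 0.032 over the fifth with the longest. Within animals with Y-linked transcripts these were -0.073 and 0.053, and within the others 0.0088 and 0.017, where the trend was barely seen. The part of this trend in either list was not tested beyond the offset for exonic length, under which their medians were -0.14 and -0.044. Of 10 tested mitochondrially encoded genes 8 were negative, with a median of -0.075. *mt-Nd6* stood at 395 to 454 CPM in mutants and 422 to 495 CPM in wild types (-0.092 ± 0.078). *mt-Co2*, a main subunit of cytochrome oxidase, was counted at only 0.544 to 1.34 CPM in mutants and 0.9798 to 1.23 CPM in wild types. The tested *mt-Co3* and *mt-Atp6* were as low, at means of 1.118 and 0.679 CPM in mutants and 0.935 and 0.837 CPM in wild types, and *mt-Nd3*, *mt-Nd4l* and *mt-Atp8* were too low to test. How reads shared with near-identical nuclear copies were counted is not given in the sources used here, so the values of these genes are uncertain. They enter the median through 3 of its 10 members.

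Metabolic lists were close to even. Sterol synthesis had a median of 0.054 with 19 of 27 positive, and hypoxia and glycolysis 0.043 with 19 of 32 positive. *Insig2*, a brake on sterol synthesis, was higher in all 4 mutants, at 37.6, 37.8, 34.5 and 33.3 CPM in mutants, against 33.02, 30.04, 31.2 and 29.6 CPM in wild types (0.21 ± 0.068), and *Stard4*, a sterol carrier, stood at 167 to 215 CPM in mutants and 161 to 172 CPM in wild types (0.13 ± 0.081). *Eno1*, the glycolytic enolase, stood at 244 to 290.0 CPM in mutants and 272 to 332 CPM in wild types (-0.20 ± 0.081), and *Car9*, a hypoxia-induced carbonic anhydrase, at 0.364 to 0.6797 CPM in mutants and 0.574 to 1.09 CPM in wild types.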

How the data were processed

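RNA had been extracted from magnetically sorted cells and sequenced on an Illumina NextSeq. The library kit is given differently by the labels and the study. The authors trimmed reads with the FASTX-toolkit and aligned them to GRCm39 with STAR 2.7.9a, and DESeq2 stands beside it in the submitters' processing notes. The deposited values are raw read counts per gene, whole numbers without normalization, for 56980 versioned Ensembl identifiers. The annotation release and strand setting are not given in the sources used here. The GENCODE vM39 annotation supplied symbols and positions for 56236 identifiers (98.7%), and of the 114 genes named by rule 63 share exon positions with another gene.

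Groups came from the labels. Mutants and wild types were compared by edgeR's quasi-likelihood test (glmQLFTest; version 4.0.16, R 4.3.3; TMM factors, filterByExpr, Benjamini-Hochberg, threshold 0.05) on the 8 EC libraries without covariates, and the EC minus astrocyte effect on all 16. A call means an adjusted p under 0.05. Standard errors came from the coefficient and its F statistic, and CPM were scaled by TMM factors. An animal's number pairs its 2 libraries: their deviations from the group means correlated at 0.199 to 0.526 over 9816 genes, and each EC library matched the astrocytes of its own animal best. P-values measure the spread between 4 animals a group.

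Named were a panel of 35 genes, the 15 smallest p, the 2 smallest p of each of 26 pathway lists, the 5 smallest p of the EC minus astrocyte effect, and the 2 most abundant members of each of 10 marker lists, as values only. Members and lists were chosen with earlier results of these data known, and 2 lists, of oxidative phosphorylation subunits and of genes annotated as ribosomal RNA, were added later. Alternatives were DESeq2 1.42.0, RLE factors, no filter, a filter of 1 CPM in 4 libraries, limma-voom 3.58.1 with quality weights, 1 fit over 16 libraries, *Xist* as a covariate, fits within animals with and without Y-linked transcripts, the animal as a block, leaving out each animal, and, added after seeing the data, an offset for exonic length (loess, span 0.5). Some named genes are not reported here. Fits were tested on simulated data. No sequence was read beyond the annotated transcripts.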

Additional observations from a re-analysis of the deposited data

Results flagged for a closer look

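In 15 of 242 groups of 4 libraries checked, the highest or lowest value lay far from the other 3 by Dixon's test at its 95% level, where chance gives about 1 in 20. Wild-type animal 9 stood apart for *Itgav* at 41.8 CPM, *Rela* at 164 CPM and *Ier5* at 156 CPM. Wild-type animal 22 stood apart for *Arhgef15* at 268 CPM. Wild-type animal 5 and mutant 21 stood apart in choroid plexus RNA, with *Ttr* at 5002 and 1062 CPM, *Clic6* at 55.6 and 21.01 CPM and the summed markers at 5174 and 1106 CPM. Among mutants, animal 18 stood apart for *Lpar4* at 34.9 CPM, *Rgs5* at 1504 CPM and the summed oligodendrocyte markers at 3498 CPM, animal 2 for *Car9* at 0.6797 CPM, and animal 13 for fibroblast and meningeal markers at 579 CPM. The EC effect differed from the astrocyte effect, by the test of that difference, for *Hmgb1* (log2 difference 1.32) and *Esr1* (-5.85).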

How the results depend on the processing

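The count of called EC genes was 0 under RLE factors, both filters, limma-voom, 1 fit over all libraries, both sets, the length offset and every omission of an animal, 3 under DESeq2 and 1 with *Xist* as a covariate; the cause was not tested. The EC minus astrocyte effect passed in 2 genes, in 3 with the animal as a block, a replicate block that also called *Cdkn1a* and kept *Hmgb1* and *Esr1*, and in 1 to 3 when an animal was left out. *Esr1* passed in each of these, and *Hmgb1* did not without animals 2, 13, 18, 19 or 22. Without animal 5 *Calr3* also passed, and without animal 13 *Cdkn1a*. Of 95 named genes with a test 71 kept their sign in all alternatives. None of the values whose sign turned was called. The log2 fold change became -0.0352 for *Slc2a1* and -0.000671 for *Pecam1* with *Xist* as a covariate, -0.0393 for *Ocln*, -0.0211 for *Tjp1*, -0.0131 for *Slc2a1*, -0.0148 for *Pecam1* and 0.096 for *Vcam1* with limma-voom, and -0.00329 for *Pecam1* with the length offset. Within animals with Y-linked transcripts it was 0.0256 for *Hmgb1*, 0.0225 for *Cdh5*, 0.0042 for *Ctnnb1*, 0.0562 for *Notch1*, 0.148 for *Vcam1*, -0.367 for *Ager* and 0.0327 for *Cdkn1a*, and within the others -0.113 for *Ocln*, -0.140 for *Tjp1*, 0.927 for *Plvap*, -0.081 for *Slc2a1*, -0.0524 for *Pecam1*, -0.031 for *Flt1*, -0.0234 for *Tek*, -0.0101 for *Fzd4*, 0.0365 for *Axin2*, 0.0425 for *Dll4*, -0.111 for *Tlr4*, -0.0139 for *Teddm2*, 0.00432 for *Efnb1* and 0.195 for *mt-Co2*. Leaving out an animal gave -0.0257 to 0.141 for *Ocln*, -0.0946 to 0.00783 for *Ctnnb1*, -0.061 to 0.125 for *Tjp1*, -0.130 to 0.0258 for *Mfsd2a*, -0.0929 to 0.181 for *Slc2a1*, -0.0376 to 0.0537 for *Pecam1*, -0.00593 to 0.107 for *Flt1*, -0.0243 to 0.111 for *Tek*, -0.156 to 0.0823 for *Notch1*, -0.390 to 0.312 for *Vcam1*, -0.0808 to 0.177 for *Ager*, -0.0425 to 0.223 for *Tlr4*, -0.603 to 0.0591 for *Ptger4*, -0.103 to 0.208 for *Teddm2* and -0.603 to 0.00991 for *Ifitm3*. Medians of lists moved by more than the spread between libraries in these cases: within animals with Y-linked transcripts 0.0608 for capillary genes, 0.0798 for vasoactive and shear response, 0.116 for cell cycle and -1.745 for ependyma and choroid plexus, within the others -0.0591 for tight and adherens junctions, -0.464 for cell cycle, -0.205 for ependyma and choroid plexus and 0.00606 for all genes tested, with limma-voom -0.0492 for neuron and -0.437 for ependyma and choroid plexus, with *Xist* -0.0487 for neuron, and over omitted animals -0.096 to 0.0521 for vasoactive and shear response, -0.103 to 0.123 for astrocyte genes named by the study, -0.0321 to 0.144 for neuron, -1.335 to -0.228 for ependyma and choroid plexus and -0.0131 to 0.00465 for all genes tested. The median of choroid plexus markers without wild-type animal 5 was -0.228. The exact p of *Hmgb1* ran from 0.143 to 0.886 over omitted animals.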

Other observations

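*B3gnt3*, a glycosyltransferase that builds carbohydrate ligands of L-selectin, was named after its values were seen, for its fold change. It stood at 2.58, 2.04, 13.9 and 14.2 CPM in mutants, against 9.32, 25.8, 27.7 and 46.2 CPM in wild types, a log2 fold change of -1.75 ± 0.69 (edgeR adjusted p = 0.943). In both sets of animals the mutants were below the wild types, by -2.92 among animals with Y-linked transcripts and -1.40 among the others, although the genotypes overlapped when the sets were pooled. A choice by fold change favours such a split, and the share of all genes that split so was not counted. *Thbs1*, an angiogenesis inhibitor, stood at 5.44, 11.5, 7.596 and 7.53 CPM in mutants, against 40.6, 5.48, 7.82 and 11.3 CPM in wild types, where wild-type animal 5 alone set the log2 fold change of -1.03 ± 0.59. *H2-Ab1*, a class II antigen presentation gene, was highest in wild-type animal 22 and mutant 18, at 65.03 and 27.7 CPM, as *Cd74* was, against 0.789 to 5.97 CPM in the other 6 libraries.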
